A study of Mus musculus with 12 samples.

Results

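RNA-seq measured 10 enzymes of glycolysis and lactate formation in tdTomato-sorted cells of the glomeruli, labelled glomerular endothelial cells, of WT and AS (Alport syndrome) mice: Hk1, Hk2, Gpi1, Pfkl, Pfkp, Aldoa, Pgk1, Eno1, Pkm and Ldha. A gene was taken when its symbol was that of a row in the deposited tables, and 10 of the 10 were found among the 17811 genes of the dim tdT table and the 17521 of the bright tdT table. All mice were C57BL/6, 4 months old, and carried a Tek-Cre transgene with a tdTomato (tdT) reporter, which is switched on where Cre has been active. AS mice were labelled Col4a5 -/-, a mutation of the gene for the α5 chain of type IV collagen, and WT mice were wild type at that gene. Glomeruli were isolated by sieving from the renal cortex and digested, and cells of low (dim tdT) and high (bright tdT) fluorescence were sorted. Each of 3 WT and 3 AS mice gave 1 dim tdT and 1 bright tdT library, so that the 12 libraries formed 4 groups of 3. Tek-Cre is known to act in endothelium and also in the blood cell lineage, and the sort by fluorescence alone does not part these.

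Glycolysis turns glucose into pyruvate in the cytosol and yields ATP without oxygen. Hexokinase traps glucose in the cell as glucose 6-phosphate, glucose phosphate isomerase and phosphofructokinase carry it on to the committed step, aldolase splits the sugar, and phosphoglycerate kinase, enolase and pyruvate kinase complete the path, after which lactate dehydrogenase can reduce pyruvate to lactate. Several steps are served by isoenzymes from separate genes: Hk1 is the widespread hexokinase and Hk2 an inducible one, while Pfkl, Pfkp and Pfkm encode the liver, platelet and muscle types of phosphofructokinase. Endothelial cells are known to rely largely on glycolysis for ATP, and activated leukocytes to raise it.

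Since several of these genes are known targets of the hypoxia-inducible factors, their promoters were searched for the core of the hypoxia response element, ACGTG or GCGTG, on both strands. RefSeq start sites on GRCm38.p6 gave 17 windows of 250 bases upstream for the 10 genes. Of these windows 13 held at least 1 core, beside 38.6% of all 32807 windows of the same length. By gene, 9 of the 10 had such a window (the exception was Gpi1), beside 41.5% of all 26987 genes with a window. Windows of Aldoa and of Eno1 overlap and share cores, so that the windows are not independent. The 10 genes had more windows per gene (17 for 10) than all genes (32807 for 26987), which favours the count by gene. The windows of the 10 genes were 49.6% to 71.2% G or C, most of them above the median of 52.4% over all windows. The part of base composition in these shares was not tested. The longer motif CACGTG, an E-box that contains ACGTG, was in 1 of the 17 windows, against 6.02% of all windows. Shown are the windows of Hk1 and Hk2, which ran in opposite directions between the sorted cells, and of Eno1 and Ldha, which did so in AS mice. Each is the window farthest upstream that overlaps no annotated exon, written 5′ to 3′ on the strand of the gene with the bases of each core in capitals. The Hk1 window (chr10:62379909-62380158, minus strand) has no core and is given in lower case throughout. The Hk2 window is chr6:82774455-82774704 (minus strand), the Eno1 window chr4:150236458-150236707 (plus strand) and the Ldha window chr7:46845554-46845803 (plus strand).
Hk1: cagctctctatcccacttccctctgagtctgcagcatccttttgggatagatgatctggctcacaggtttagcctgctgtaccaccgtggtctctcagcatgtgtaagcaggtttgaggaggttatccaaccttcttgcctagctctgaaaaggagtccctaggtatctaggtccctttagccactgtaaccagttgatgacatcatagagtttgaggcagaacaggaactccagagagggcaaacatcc
Hk2: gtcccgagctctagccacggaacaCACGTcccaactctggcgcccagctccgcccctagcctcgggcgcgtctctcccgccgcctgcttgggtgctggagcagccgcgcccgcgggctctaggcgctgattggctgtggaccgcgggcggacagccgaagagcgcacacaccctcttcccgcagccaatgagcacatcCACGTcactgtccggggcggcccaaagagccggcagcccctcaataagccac
Eno1: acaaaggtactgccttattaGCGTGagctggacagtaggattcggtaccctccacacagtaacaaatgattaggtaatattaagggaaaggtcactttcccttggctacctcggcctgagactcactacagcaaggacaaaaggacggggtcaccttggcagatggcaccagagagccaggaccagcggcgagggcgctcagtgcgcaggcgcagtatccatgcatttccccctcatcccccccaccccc
Ldha: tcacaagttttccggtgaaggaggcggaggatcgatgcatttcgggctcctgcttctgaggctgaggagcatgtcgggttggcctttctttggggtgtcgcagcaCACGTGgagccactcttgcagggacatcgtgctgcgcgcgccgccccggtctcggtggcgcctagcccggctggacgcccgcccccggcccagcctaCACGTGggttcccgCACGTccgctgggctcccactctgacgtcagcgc
The Hk2 window holds 2 cores and that of Eno1 holds 1. That of Ldha holds 5, of which 4 come from 2 E-boxes, each read on both strands. The window of the other Hk1 start site, chr10:62340422-62340671 inside the gene, had 3 cores. Which start site was used cannot be read from gene counts, and a match of letters is a description of the window.

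Counts on genes ranged from 11440169 to 15074909 per library. Col4a5 had 439 to 877 counts in the WT dim tdT and 17 to 51 in the AS dim tdT libraries, but 69 to 158 in the WT bright tdT and 43 to 104 in the AS bright tdT libraries, where the genotypes overlapped, so that this count does not check the genotype label of the bright tdT libraries. Endothelial markers (12 genes, Kdr and Cdh5 among them) summed to between 10900 and 19090 CPM (counts per M counts of the library, with library sizes scaled over the 12 libraries by TMM) in the bright tdT libraries and to between 228.5 and 1362 CPM in the dim tdT libraries. Leukocyte markers (12 genes, Ptprc and Lyz2 among them) summed to between 8621 and 19200 CPM in the dim tdT libraries and, over the 9 that could be analysed there, to between 31.3 and 142.2 CPM in the bright tdT libraries. The label of endothelial cell was thus met by the bright tdT libraries, while the dim tdT libraries held more RNA of leukocyte markers than of endothelial markers in 6 of 6 mice. None of the 12 endothelial markers was at 0 in a group, and none of the leukocyte markers analysed was at 0 in the bright tdT groups. Proximal tubule markers (12 genes) summed to between 1429 and 6696 CPM in the WT dim tdT, to between 400.3 and 2654 CPM in the WT bright tdT, and to between 19.9 and 484.6 CPM in the 6 AS libraries. WT dim tdT library 1 had 6696 CPM, beside 1502 and 1429 CPM in the other two of its group, while its markers of the loop, distal tubule and collecting duct (6 genes) were the lowest of the 3, at 683.5 against 1646 and 1028 CPM. In such bulk samples, fewer cells of a type and less RNA per cell cannot be told apart.

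**Figure D1:**
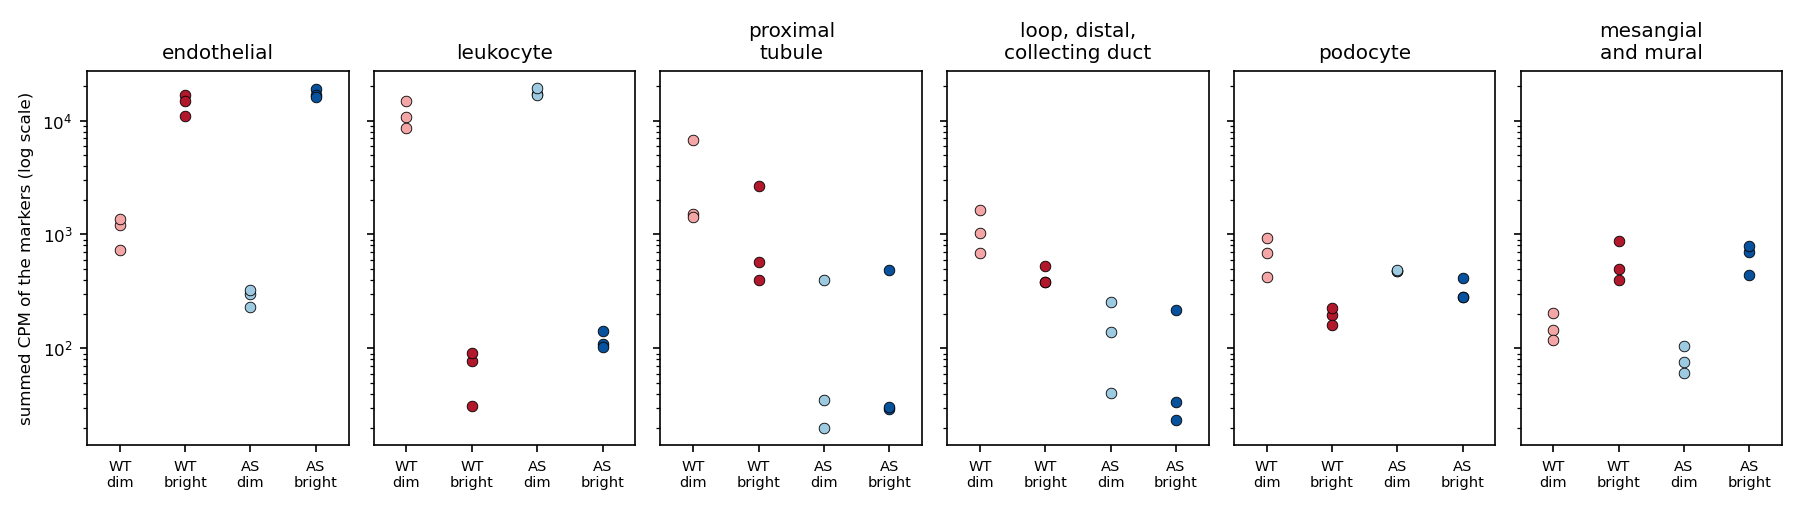
Summed CPM of marker genes (vertical axis, log scale) in the 12 libraries, 1 point each, by genotype and subpopulation (horizontal axis). Endothelial markers lie between 10900 and 19090 CPM in the bright tdT libraries, leukocyte markers between 8621 and 19200 CPM in the dim tdT libraries, and proximal tubule markers are highest in WT dim tdT library 1.

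Levels of the 10 genes were compared with each other as CPM per kb of the longest principal coding transcript, since a longer transcript gives more reads. Ldha led in every group, with 187 ± 41.0 (SD, n = 3) CPM per kb in the WT dim tdT and 411 ± 84.6 (SD, n = 3) in the AS bright tdT cells. Aldoa followed in every group at 110 to 131 CPM per kb on average, and neither Ldha and Aldoa nor Aldoa and the next gene overlapped between libraries of a group. By this length Hk2 was last in every group, below all libraries of the gene next to it, from 3.72 ± 0.71 (SD, n = 3) CPM per kb in the AS dim tdT down to 0.13 ± 0.037 (SD, n = 3) in the AS bright tdT cells. Between these, Eno1, Pgk1, Gpi1 and Pkm made up the middle, and most neighbours in that order overlapped: in the WT bright tdT cells, Gpi1, Pgk1, Pkm and Eno1 each overlapped with the next. The phosphofructokinase and hexokinase genes stood at the low end, though Pfkl overlapped with Eno1 in the WT bright tdT cells. The order depends on the length used. With the summed length of all annotated exons, Hk2 held 50.3% to 65.4% of the summed Hk1 and Hk2 level in the AS dim tdT libraries, and so stood above Hk1 there.

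**Figure D2:**
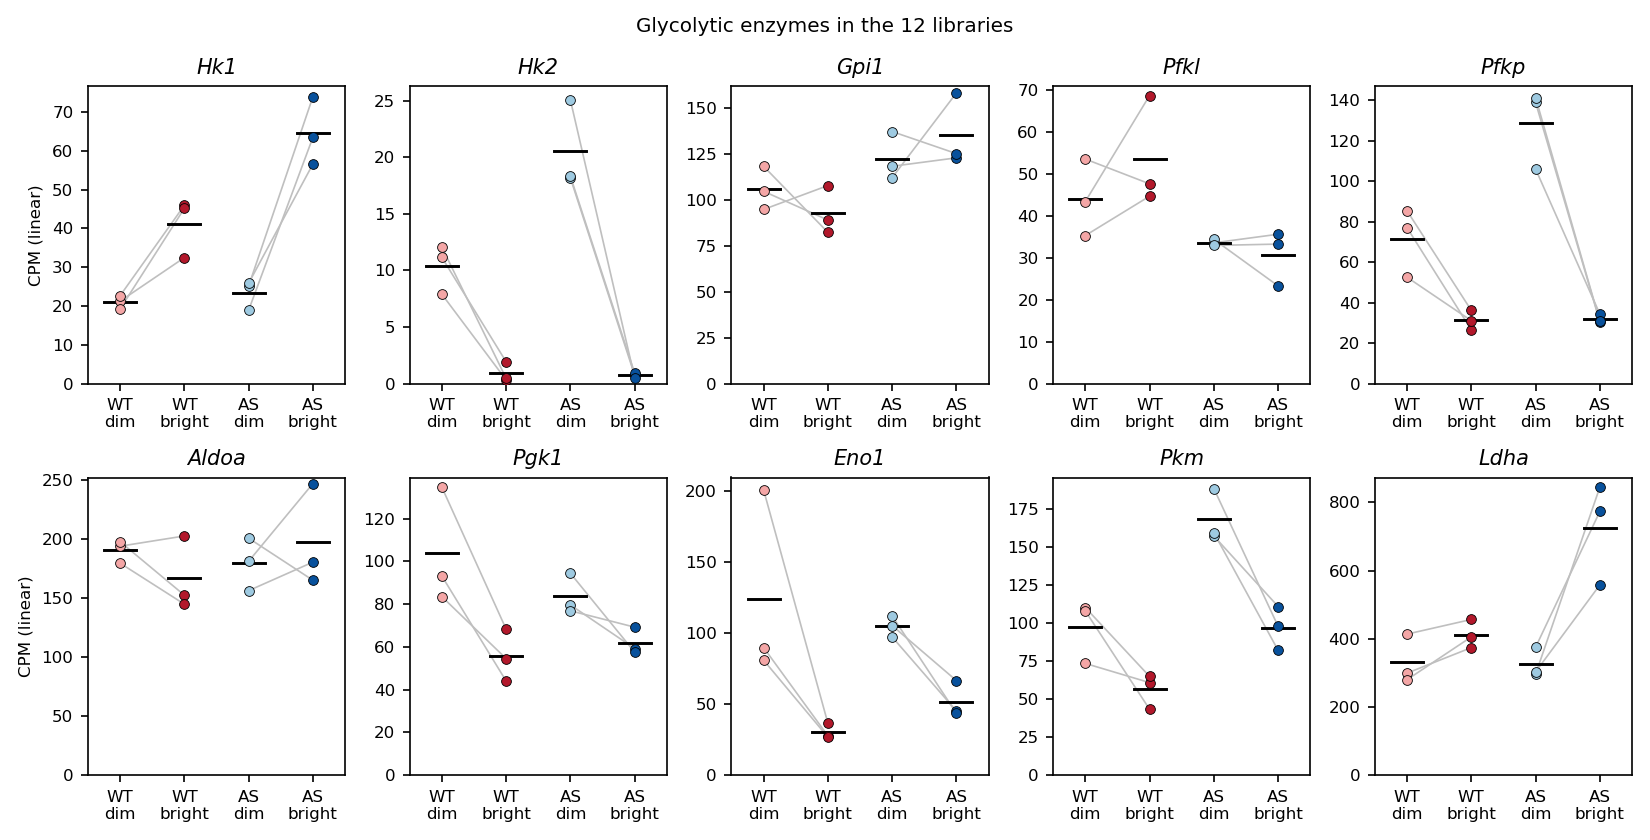
CPM (linear vertical axes, each from 0) of the 10 genes in the 12 libraries, by genotype and subpopulation. Points are libraries, black bars group means, and grey lines join the dim tdT and bright tdT library of a mouse. Hk2, Pfkp, Pgk1, Eno1 and Pkm are lower in the bright tdT library in every mouse, and Hk1 and Ldha are higher in every mouse.

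The first question was how the 2 subpopulations of a genotype differed. In bright tdT over dim tdT cells of WT mice, Hk1 was higher and Hk2, Pfkp and Eno1 were lower. The test was edgeR's quasi-likelihood test, with p adjusted over all genes by the method of Benjamini and Hochberg and a threshold of 0.05. These were 4 of 10 genes, where 25.3% of all 14247 genes tested passed (13.8% higher, 11.5% lower). In AS mice, Hk1 and Ldha were higher and Hk2, Pfkp, Eno1 and Pkm were lower, 6 of 10 genes, where 55.1% of 14052 genes passed (28.6% higher, 26.5% lower). In both genotypes, 4 of the 10 passed in the same direction (Hk1, Hk2, Pfkp and Eno1), and 4 passed in neither (Gpi1, Pfkl, Aldoa and Pgk1). The share of the 10 that passed in AS mice was near that of all genes. The libraries of the subpopulations did not overlap for 6 of 10 genes in WT (41.9% of all genes) and for 7 of 10 in AS mice (62.4% of all genes). The median log2 fold change of the 10 was -0.44 in WT and -0.29 in AS mice, beside -0.036 and 0.018 over all genes tested. In the same comparisons, all 12 endothelial markers were higher and all 9 tested leukocyte markers lower in both genotypes, and their part in the results below was not tested.

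The second question was how AS mice differed from WT mice within a subpopulation. Of the 10 genes, none passed in the dim tdT cells, beside 8.63% of the 14637 genes tested, and none in the bright tdT cells, beside 0.452% of the 14396 tested. At an unadjusted p under 0.05 there were 3 of 10 in the dim tdT (Hk2, Pfkp and Pkm, all higher in AS), against 26.3% of all genes in either direction and 10.3% higher. In the bright tdT cells there were 6 of 10 (Hk1, Gpi1, Eno1, Pkm and Ldha higher, Pfkl lower), against 21.8% of all genes (9.98% higher, 11.9% lower). DESeq2 called the same 3 genes in the dim tdT cells, where it called 15.2% of all genes (4.55% higher). In the bright tdT cells it called Ldha higher and Pfkl lower, beside 7.82% of all genes (3.12% higher, 4.7% lower). The likelihood ratio test of edgeR called Pkm in the dim tdT and none in the bright tdT cells. The libraries of AS and WT did not overlap for 4 of 10 genes in the dim tdT (3 higher and 1 lower in AS, beside 31.2% of all genes, 15% higher and 16.2% lower). This held for 6 of 10 among the bright tdT cells (5 higher and 1 lower, beside 24.5% of all genes, 13.6% higher and 10.9% lower). The sum over the 10 genes was 1099 ± 151 (SD, n = 3) CPM in the WT dim tdT, 1190 ± 119 in the AS dim tdT, 941 ± 88.0 in the WT bright tdT and 1397 ± 232 in the AS bright tdT cells (SD, n = 3 each). The genotypes overlapped in the dim tdT cells and not in the bright tdT cells, at 881 to 1042 in WT and 1169 to 1632 CPM in AS. Ldha was the largest of the 10 in this sum, and by itself it also did not overlap between the genotypes in the bright tdT cells. The sum itself was not tested.

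The third question was whether the effect of genotype differed between the subpopulations. None of the 10 genes passed the test of that difference (AS over WT in the bright tdT minus AS over WT in the dim tdT cells), which 3.77% of 15084 genes passed (2.96% upward, 0.815% downward), and neither DESeq2, which called 8.05% of all genes, nor the likelihood ratio test called any of the 10. A replicate block for the mouse raised the number of genes that passed from 569 to 877, none of the 10 among them. At an unadjusted p under 0.05 there were 3 of 10, against 18.5% of all genes (11.5% upward, 6.95% downward). These were Eno1 at 1.01 (SE 0.45) and Ldha at 0.84 (SE 0.30) on the log2 scale, and Pfkp at -0.82 (SE 0.33). The value of Eno1 was 0.48 (adjusted p = 0.521) without WT dim tdT library 1. The median of this difference over all genes tested was 0.13 with TMM scaling and -0.030 with library sizes alone, so that these values stand against a shift of the scale itself.

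**Figure D3:**
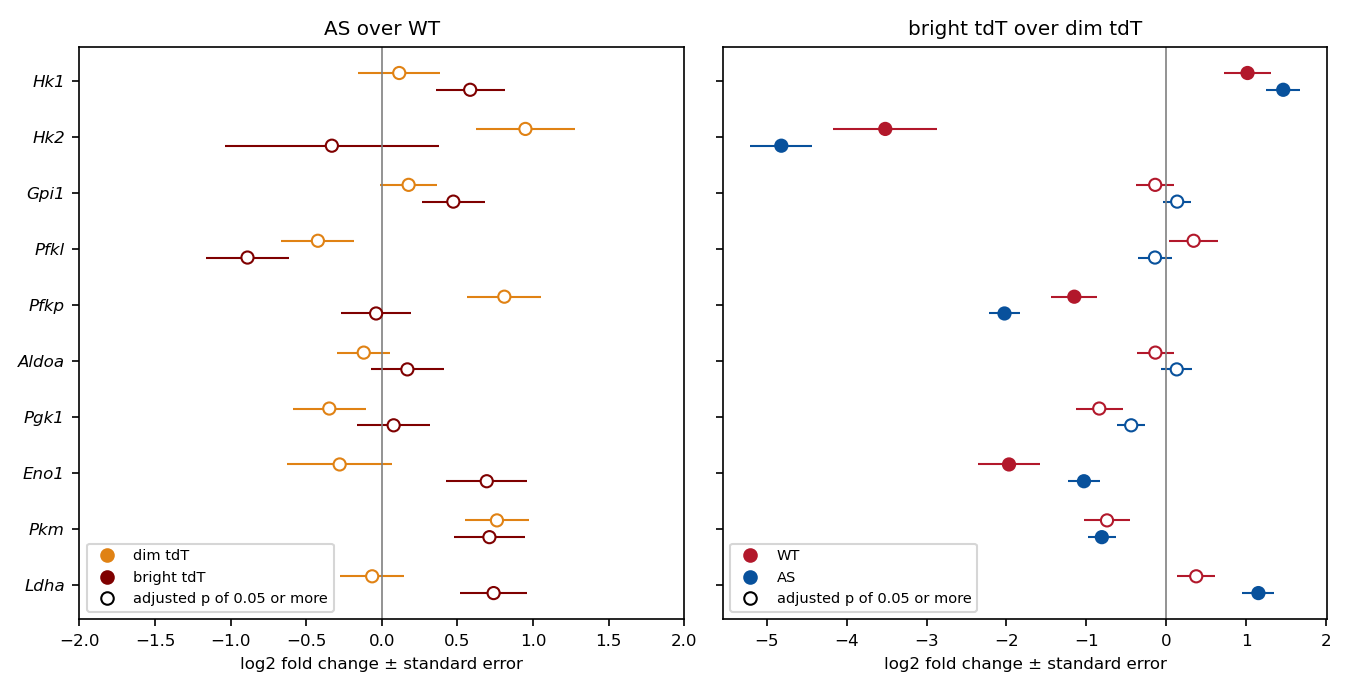
Log2 fold change (horizontal axis) with its SE (bars) of the 10 genes, from edgeR's quasi-likelihood fits of 3 against 3 libraries. Left, AS over WT in each subpopulation; right, bright tdT over dim tdT by genotype; filled points passed an adjusted p of 0.05, which none of the 20 on the left and 10 of the 20 on the right did.

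Hk1 and Hk2 are the hexokinase genes among the 10 and serve the first step. Hk1 (chromosome 10, 62268855 to 62379908, minus strand of GRCm38) had 21.2, 22.6 and 19.2 CPM in the WT dim tdT libraries, against 32.5, 46.0 and 45.2 in the WT bright tdT libraries. In AS mice it had 25.2, 25.9 and 18.9 CPM in the dim tdT libraries, against 74.0, 56.6 and 63.5 in the bright tdT libraries. The lowest bright tdT library of a genotype was above its highest dim tdT library. Hk1 was 2.02-fold higher in the bright tdT cells of WT (log2 1.01, SE 0.29, adjusted p = 0.0337) and 2.75-fold higher in those of AS mice (log2 1.46, SE 0.21, adjusted p = 0.000218). The WT call was lost when any of the 3 dim tdT libraries or bright tdT library 2 or 3 was left out (adjusted p 0.0654 to 0.122), while the fold change stayed between 0.96 and 1.15 on the log2 scale in these and the other settings. Within the bright tdT cells, the 3 AS libraries also lay above the 3 WT libraries of Hk1, with a log2 fold change of 0.58 (SE 0.23, adjusted p = 0.174).

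Hk2 (chromosome 6, 82725025 to 82774454, minus strand) ran the other way. It had 7.89, 11.2 and 12.1 CPM in the WT dim tdT libraries, against 0.32, 1.92 and 0.46 in the WT bright tdT libraries. In AS mice it had 18.2, 18.3 and 25.1 CPM in the dim tdT libraries, against 0.73, 0.91 and 0.51 in the bright tdT libraries. The bright tdT values rest on 5 to 27 counts per library, the dim tdT values on 90 to 314. Hk2 was 11.4-fold lower in the bright tdT cells of WT (log2 -3.52, SE 0.65, adjusted p = 0.00393) and 28.2-fold lower in those of AS mice (log2 -4.82, SE 0.39, adjusted p = 3.48e-06), and was lower in all 3 mice of either genotype. WT bright tdT library 2, with 27 counts, set much of the WT value, which was 24.9-fold without it. In the dim tdT cells, all 3 AS libraries of Hk2 lay above all 3 WT libraries, at a log2 fold change of 0.95 (SE 0.33, adjusted p = 0.11), whereas in the bright tdT cells the genotypes overlapped (log2 -0.33, SE 0.71). The leukocyte markers, which ran like Hk2 between the subpopulations, summed to between 8621 and 14770 CPM in the WT dim tdT and between 16690 and 19200 CPM in the AS dim tdT libraries, and their part was not tested.

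Taken per kb, Hk2 made up 25.6% ± 4.9 (SD, n = 3) of the summed Hk1 and Hk2 level in the WT dim tdT and 38.2% ± 8.5 in the AS dim tdT cells, but 1.41% ± 1.2 in the WT bright tdT and 0.79% ± 0.29 in the AS bright tdT cells (SD, n = 3 each). The lowest share in a dim tdT library, 20.6%, lay above the highest in a bright tdT library, 2.84%. Other hexokinase genes were left out of this sum. With the summed length of all annotated exons in place of the principal transcript, the shares were 41.1% and 55.5% in the dim tdT and 2.82% and 1.59% in the bright tdT cells, so that the larger part in the AS dim tdT cells was Hk1 by the first length and Hk2 by the second.

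**Figure D4:**
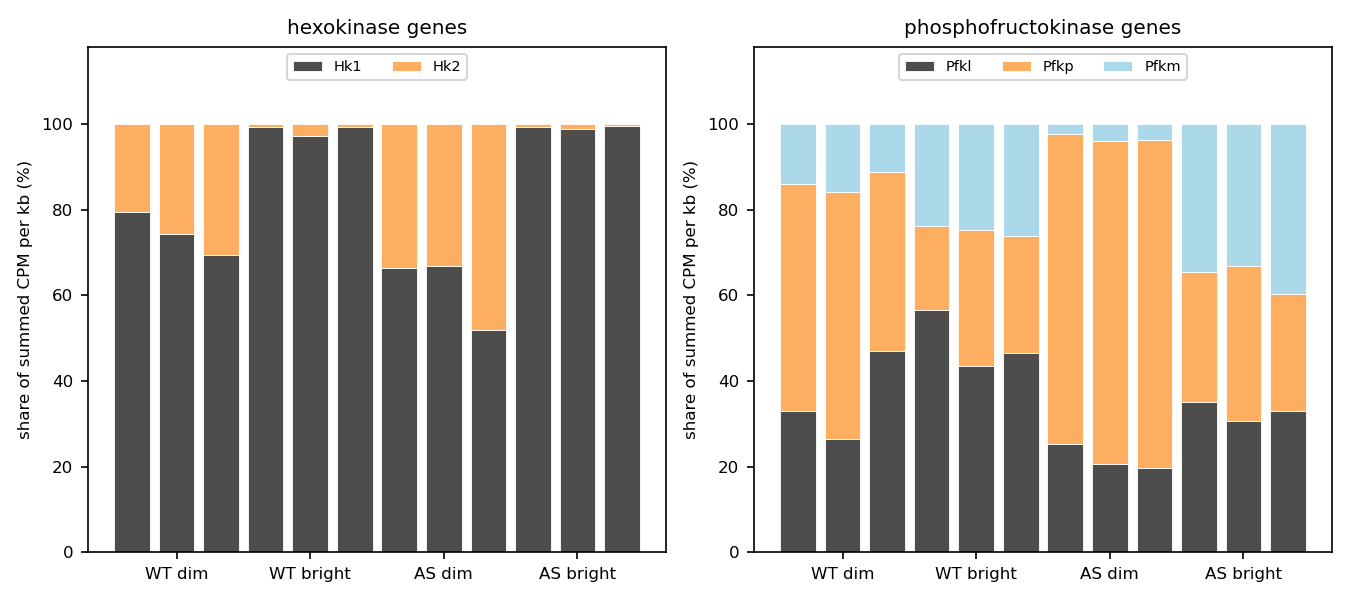
Share (vertical axis, percent) of each gene in the summed CPM per kb of Hk1 and Hk2 (left) and of the 3 phosphofructokinase genes (right), 1 bar per library and 3 libraries per group. Other hexokinase genes are left out. Hk2 holds at least 20.6% in the dim tdT and at most 2.84% in the bright tdT libraries, and Pfkp holds 72.3% to 76.5% in the AS dim tdT libraries.

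Gpi1, Pfkl and Pfkp serve the next steps, isomerase and phosphofructokinase. Gpi1 (chromosome 7, 34201330 to 34230336, minus strand) stayed between 82.3 and 158 CPM over the 12 libraries and passed no test. Bright tdT over dim tdT it gave a log2 fold change of -0.14 (SE 0.24) in WT and 0.13 (SE 0.18) in AS mice. In the bright tdT cells, its AS libraries (122.8 to 158 CPM) lay above its WT libraries (82.3 to 107.7 CPM), by 0.47 (SE 0.21, adjusted p = 0.218) on the log2 scale. Pfkl (chromosome 10, 77986947 to 78010083, minus strand) had 43.3, 35.2 and 53.5 CPM in the WT dim tdT, 68.6, 44.6 and 47.5 in the WT bright tdT, 33.5, 34.3 and 32.9 in the AS dim tdT, and 35.5, 23.2 and 33.2 in the AS bright tdT libraries. It was the only one of the 10 genes whose AS libraries lay below the WT libraries in both subpopulations without overlap. Its log2 fold change of AS over WT was -0.42 (SE 0.24, adjusted p = 0.314) in the dim tdT and -0.89 (SE 0.28, adjusted p = 0.117) in the bright tdT cells, where DESeq2 called it (adjusted p = 0.0411).

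Pfkp (chromosome 13, 6579768 to 6648777, minus strand) had 77.0, 85.3 and 52.5 CPM in the WT dim tdT libraries, against 26.5, 36.1 and 31.0 in the WT bright tdT libraries. In AS mice it had 106, 138.9 and 141 CPM in the dim tdT libraries, against 34.3, 30.5 and 30.7 in the bright tdT libraries. The bright tdT libraries of both genotypes lay close together, below all dim tdT libraries. Pfkp was 2.22-fold lower in the bright tdT cells of WT (log2 -1.15, SE 0.29, adjusted p = 0.018) and 4.07-fold lower in those of AS mice (log2 -2.03, SE 0.19, adjusted p = 1.01e-05). The WT call was lost without WT dim tdT library 2 or WT bright tdT library 1 or 3 (adjusted p 0.0591 to 0.0732). In the dim tdT cells, Pfkp was above WT in all 3 AS libraries, at a log2 fold change of 0.81 (SE 0.25, adjusted p = 0.0778).

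The third phosphofructokinase gene, Pfkm, was not among the 10, and is given because the share of each depends on it. It had 14.1, 16.3 and 9.78 CPM in the WT dim tdT, 22.3, 19.6 and 20.7 in the WT bright tdT, 2.33, 4.97 and 4.71 in the AS dim tdT, and 27.0, 19.4 and 30.8 in the AS bright tdT libraries. Pfkm was 3.46-fold lower in AS than in WT dim tdT cells (log2 -1.79, SE 0.44, adjusted p = 0.046), a call held by 4 of 13 alternative settings, and stood 6.42-fold above the dim tdT level in AS bright tdT cells (log2 2.68, SE 0.34, adjusted p = 9.37e-05). Of the summed CPM per kb of Pfkl, Pfkp and Pfkm, Pfkp held 50.8% ± 8.2 (SD, n = 3) in the WT dim tdT and 74.7% ± 2.2 in the AS dim tdT cells, but 26.2% ± 6.1 in the WT bright tdT and 31.4% ± 4.4 in the AS bright tdT cells (SD, n = 3 each). Pfkm held 13.7% and 3.28% in the dim tdT, and 24.9% and 35.7% in the bright tdT cells of WT and AS. With the summed exon length, which is long for Pfkp, the share of Pfkp was 33.3%, 60.5%, 14.3% and 16.5% in the same order, so that its place among the 3 depends on the length used while its order over the groups does not. The lowest share of Pfkp in an AS dim tdT library, 72.3%, was above the highest in a WT dim tdT library, 57.7%.

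Aldoa, Pgk1 and Eno1 serve the lower part of the path. Aldoa (chromosome 7, 126795234 to 126800751, minus strand) had the smallest ratio of highest to lowest library among the 10, between 145 and 247 CPM over the 12 libraries, with group means of 190.7 ± 9.60 in the WT dim tdT, 167 ± 31.5 in the WT bright tdT, 180 ± 22.3 in the AS dim tdT and 198 ± 43.6 in the AS bright tdT cells (SD, n = 3 each). Its 4 log2 fold changes lay between -0.14 and 0.17, each smaller than its SE. Pgk1 (chromosome X, 106187100 to 106203699, plus strand) was lower in the bright tdT library of all 3 mice of each genotype, at 44.0 to 68.3 CPM against 83.6 to 134.8 CPM in WT and at 57.5 to 69.2 against 76.9 to 94.5 CPM in AS mice. Its log2 fold change was -0.84 (SE 0.29, adjusted p = 0.0669) in WT and -0.44 (SE 0.18, adjusted p = 0.0589) in AS mice, short of the threshold, and the WT value passed with a replicate block for the mouse (log2 -0.84, adjusted p = 0.0296) and with DESeq2 (log2 -0.88, adjusted p = 0.0332). The AS value passed without AS bright tdT library 2 (log2 -0.57, adjusted p = 0.03).

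Eno1 (chromosome 4, 150236721 to 150248879, plus strand) had 201, 89.8 and 80.9 CPM in the WT dim tdT libraries, against 36.6, 27.6 and 26.7 in the WT bright tdT libraries. In AS mice it had 105, 97.3 and 112 CPM in the dim tdT libraries, against 66.5, 45.1 and 43.5 in the bright tdT libraries. WT dim tdT library 1, which had the most proximal tubule marker RNA, was the high one and also led for Pgk1 (134.8 CPM) and, among the dim tdT libraries, for Ldha (414 CPM). Eno1 was 3.91-fold lower in the bright tdT cells of WT (log2 -1.97, SE 0.39, adjusted p = 0.00543), 2.74-fold lower without that library (adjusted p = 0.00936), and 2.04-fold lower in those of AS mice (log2 -1.03, SE 0.21, adjusted p = 0.0018). Between the genotypes, Eno1 was above WT in all 3 AS libraries of the bright tdT cells (log2 0.69, SE 0.27, adjusted p = 0.172). In the dim tdT cells the genotypes overlapped, at a log2 fold change of -0.28 (SE 0.35) that was 0.27 without WT dim tdT library 1.

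Pkm and Ldha make and use pyruvate. Pkm (chromosome 9, 59656368 to 59679375, plus strand), whose splice forms M1 and M2 are not told apart by gene counts, had 73.5, 110.3 and 108 CPM in the WT dim tdT libraries, against 60.9, 64.9 and 43.3 in the WT bright tdT libraries. In AS mice it had 157, 159.6 and 189 CPM in the dim tdT libraries, against 111, 82.1 and 97.9 in the bright tdT libraries. It was the only one of the 10 genes whose AS libraries lay above the WT libraries in both subpopulations without overlap, by a log2 fold change of 0.76 (SE 0.21, adjusted p = 0.0626) in the dim tdT and 0.71 (SE 0.23, adjusted p = 0.129) in the bright tdT cells. The effect of genotype differed between the subpopulations by -0.0091 (SE 0.32) on the log2 scale. Pkm was 1.75-fold lower in the bright tdT cells of AS mice (log2 -0.81, SE 0.18, adjusted p = 0.00319), and at a log2 fold change of -0.74 (SE 0.29, adjusted p = 0.0916) in WT mice, where the libraries also did not overlap.

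Ldha (chromosome 7, 46841475 to 46855627, plus strand) had 414, 299 and 279.8 CPM in the WT dim tdT libraries, against 457, 374 and 405 in the WT bright tdT libraries. In AS mice it had 296, 303 and 375 CPM in the dim tdT libraries, against 845, 558 and 774 in the bright tdT libraries. The 3 AS bright tdT libraries were the 3 highest of the 12. Ldha was 2.22-fold higher in the bright tdT cells of AS mice (log2 1.15, SE 0.20, adjusted p = 0.000763), and at a log2 fold change of 0.37 (SE 0.24, adjusted p = 0.283) in WT mice. There the groups overlapped, while the bright tdT library of each of the 3 WT mice was above its dim tdT library, by 1.10-fold to 1.45-fold (log2 0.38, SE 0.18, adjusted p = 0.155 with a replicate block for the mouse). Against WT bright tdT cells, the AS value was 0.74 (SE 0.22, adjusted p = 0.109, and 0.0402 by DESeq2) on the log2 scale, and in the dim tdT cells it was -0.064 (SE 0.21). The test of the difference between the subpopulations gave 0.84 (SE 0.30, adjusted p = 0.15). Ldhb, the other main subunit of the tetramer, fell 9.18-fold from WT to AS dim tdT cells (log2 -3.20, SE 0.55, adjusted p = 0.0217), and Ldha made up 42.9% ± 4.9 of the summed CPM per kb of both in the WT dim tdT, 68.8% ± 11.7 in the WT bright tdT, 86.5% ± 9.6 in the AS dim tdT and 91.7% ± 7.7 in the AS bright tdT cells (SD, n = 3 each). The proximal tubule markers ran with Ldhb, from 1429 to 6696 CPM in the WT dim tdT to between 19.9 and 396.2 CPM in the AS dim tdT libraries, and their part was not tested.

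A further 6 lists covered the rest of the pathway: the other glycolytic enzymes and isoenzymes, carriers of glucose and lactate, regulators of the flux, the entry of pyruvate into mitochondria, gluconeogenesis and the pentose phosphate pathway, 60 genes in all. In bright tdT over dim tdT cells, 3 of the 56 tested were higher and 11 lower in WT, where 13.8% of all genes were higher and 11.5% lower. These counts were 4 and 18 with a replicate block for the mouse, and 2 and 6 without WT bright tdT library 2. The number of all genes that passed moved too, from 3604 to 4444 with the block and to 2605 without that library. In AS mice 10 of 50 were higher and 16 lower, where 28.6% of all genes were higher and 26.5% lower. Taken in either direction, the shares that passed were near those of all genes, 25.3% in WT and 55.1% in AS mice. In both genotypes the share that was higher lay below, and the share that was lower lay above, that of all genes. Among the carriers, Slc16a3, the exporter of lactate from glycolytic cells, was 24.4-fold lower in the bright tdT cells of WT (4.55 ± 0.24 against 115 ± 93.5 CPM, adjusted p = 0.000601) and 36.9-fold lower in those of AS mice (5.04 ± 1.6 against 185 ± 25.9 CPM, adjusted p = 1.55e-07; SD, n = 3 each). Slc2a1, the widespread glucose transporter, was 3.71-fold and 4.08-fold lower, and Slc16a7 5.05-fold and 5.67-fold lower, in WT and AS mice. In all, 3 of 12 tested carriers fell and none rose in WT, and 4 of 9 fell and 2 rose in AS mice. Bsg, the chaperone of the lactate carriers, rose 2.01-fold in AS mice (adjusted p = 0.00107) and Slc2a9, a urate and hexose carrier, was the other that rose (log2 1.79, adjusted p = 0.00289).

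Among the 10 regulators, 2 rose and 2 fell in WT, and 4 rose and 3 fell in AS mice. Of all genes, 13.8% rose and 11.5% fell in WT, and 28.6% rose and 26.5% fell in AS mice. Pfkfb3, which makes the fructose 2,6-bisphosphate that activates phosphofructokinase, rose in the bright tdT cells 2.12-fold in WT (138 ± 3.3 against 67.4 ± 4.9 CPM, adjusted p = 0.00684) and 2.01-fold in AS mice (180 ± 83.5 against 88.6 ± 23.3 CPM, adjusted p = 0.021; SD, n = 3 each). Pfkfb4, which makes the same compound, fell 10.1-fold (adjusted p = 0.00199) and 12.9-fold (adjusted p = 5.78e-06). Hif1a, a hypoxia-inducible factor, fell 2.38-fold in AS mice (adjusted p = 0.000106) and had a log2 fold change of -0.58 (SE 0.24, adjusted p = 0.106) in WT mice. Pdk4, which shuts pyruvate out of oxidation, rose in AS mice (adjusted p = 0.000488) at a low level, from 0.39 ± 0.46 in the dim tdT to 4.58 ± 0.059 CPM in the bright tdT cells (SD, n = 3 each).

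In the pentose phosphate pathway, which branches off after hexokinase, 4 of 7 genes fell in each genotype, beside 11.5% of all genes in WT and 26.5% in AS mice. These were G6pdx, the first enzyme of that pathway, Pgd, Taldo1 and Tkt. They fell by 2.26-fold to 3.24-fold in WT and 2.69-fold to 6.02-fold in AS mice. Of the other glycolytic genes, Aldoc and Eno3 fell in both genotypes, and Pfkm and Tpi1 rose in AS mice. The calls of Aldoc and Eno3 each held in 6 of 13 alternative settings in WT and in 13 of 13 in AS mice. Aldoc was low, at most 0.88% of the summed CPM per kb of the aldolase genes in a library, and 0 in AS bright tdT library 3. Gapdh, at 299.6 to 443 CPM on average, gave -0.50 (SE 0.26) in WT and -0.20 (SE 0.17) in AS mice on the log2 scale, neither past the threshold. Pck2, the mitochondrial enzyme that makes phosphoenolpyruvate, was the only gluconeogenic gene past the threshold and rose 3.47-fold in WT (adjusted p = 0.00117) and 2.35-fold in AS mice (adjusted p = 0.00276). In the entry of pyruvate, 3 of 7 fell (Mpc1, Mpc2 and Pdha1) and Dlat rose in AS mice, a share near the 55.1% of all genes that passed there. None of 7 passed in WT by edgeR, beside 25.3% of all genes, and none had an unadjusted p under 0.05 either. In the same comparisons the 12 endothelial markers were higher and the 9 tested leukocyte markers lower, and their part was not tested.

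**Figure D5:**
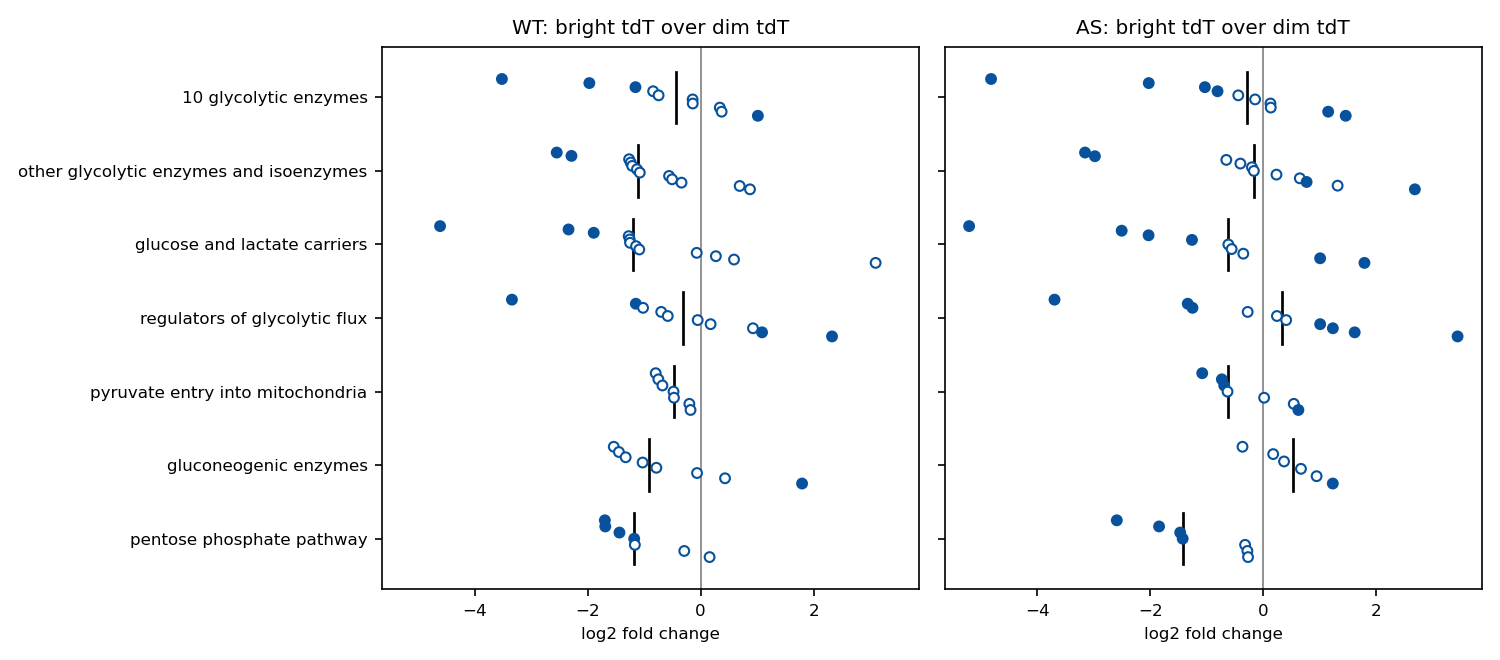
Log2 fold change (horizontal axis, bright tdT over dim tdT cells) for each gene tested in the 10 glycolytic enzymes and the 6 further lists, in WT (left) and AS mice (right). Filled points passed an adjusted p of 0.05 in edgeR, and black bars mark list medians. Slc16a3, at -4.61 and -5.20, and Hk2, at -3.52 and -4.82, lie farthest to the left.

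In AS over WT, 1 of 54 tested genes of these lists rose and 8 fell in the dim tdT cells, where 2.21% of all genes rose and 6.42% fell. Hif1a rose 1.78-fold (214 ± 17.5 against 117 ± 10.2 CPM; SD, n = 3 each; adjusted p = 0.0288), a call held in 7 of 13 alternative settings and lost in 5 of the 6 fits that left out a library (all but without WT dim tdT library 3). Those that fell were Pfkm, Ldhb, Tpi1, Pgam2, Slc16a7, Pdk2, Pck1 and Slc37a4, by 3.46-fold to 16.8-fold, and Pck1 and Slc37a4 are from the gluconeogenic list. None of the 9 passed without AS dim tdT library 1 or without AS dim tdT library 3, settings in which 0 and 1 of all genes passed, while Slc16a7, Pgam2, Tpi1 and Ldhb passed without WT dim tdT library 1, and Tpi1 and Ldhb without library 2. In the bright tdT cells none of 53 tested genes passed by edgeR, beside 0.452% of all genes. An unadjusted p under 0.05 was found for 14, beside 21.8% of all genes. DESeq2 called 3 (7.82% of all genes) and the likelihood ratio test 2 (827 of all genes). Each of the genes these called was lower in AS mice. Without AS bright tdT library 2, 7 were lower, where 275 of all genes passed in either direction. In the difference between the subpopulations, Pfkm was the only one of 56 tested that passed (3.77% of all genes). An unadjusted p under 0.05 was found for 8 (18.5% of all genes). With a replicate block for the mouse 7 passed, where 877 of all genes did. In the dim tdT cells 5 of 11 tested proximal tubule markers fell, as did 5 of 5 markers of the loop, distal tubule and collecting duct and 7 of 11 endothelial markers. In the same comparison 2 of 12 leukocyte markers rose, and of 5 podocyte markers 1 rose and 2 fell. The part of these markers was not tested.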

How the data were processed

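Poly-A selected, stranded libraries were sequenced from both sorted subpopulations of 3 WT and 3 AS mice. The authors aligned the reads with STAR 2.6.0c to GRCm38.p5 with Gencode M16, and the deposited count of a gene is the number of reads STAR assigned to it, not normalized. The strand setting of the counting is not given in the sources used here, so Hk1, Hk2, Gpi1, Pfkp and Aldoa, which an antisense or opposite-strand gene overlaps, and Pkm, which a gene on its own strand overlaps, are uncertain to that extent. So are Pfkm, which a gene on each strand overlaps, and those genes of the further lists that another gene overlaps, Tpi1 and Hif1a among them. Near copies of Aldoa, Eno1 and Ldha held 0 to 46 counts per library. RPKM values were computed by the authors and were not used. The deposited log2 fold changes and logCPM (log2 scale), the score (a likelihood ratio statistic), and the p-value and FDR are the authors' own edgeR comparison of AS with WT and were not used.

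Counts were tested with edgeR 4.0.16 (quasi-likelihood test, TMM, filterByExpr) in R 4.3.3, and p-values were adjusted over all genes tested (Benjamini-Hochberg). ERCC spike-ins (0.0286% to 0.282% of counts) were left out. AS over WT was fitted on the 6 libraries of a subpopulation, bright tdT over dim tdT on the 6 libraries of a genotype over the 15768 genes of both tables, and the difference on all 12. CPM printed are from 1 TMM scaling of the 12 libraries, while fold changes are from each fit, so that ratios of printed CPM can differ from them. The fits were also run on simulated counts with independent libraries. That run held no correlation within a mouse, and no result above rests on it. Each mouse gave 1 dim tdT and 1 bright tdT library, whose deviations from their group means correlated at 0.08 to 0.38 (mean 0.21), so a fit with the mouse as a block was an alternative there. DESeq2 1.42.0, another normalization, no filter, other tests and each library left out were the others. Replicates of a group differed by 29.5 to 104 in chi-square per degree of freedom, so none was the same library. Counting error is small beside this at 11440169 to 15074909 counts per library, except for genes such as Hk2 with few counts. The members, the lists and the tests were chosen with earlier results of these data known. Genes named from the 6 further lists and the marker lists are the 4 of a list with the largest changes past the threshold in a comparison and the 4 with the highest mean CPM. Pfkm, Ldhb and Pck2 fall under that rule too. Coordinates and transcript lengths are from GENCODE M21 and promoter windows from RefSeq, both on GRCm38.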

Additional observations from a re-analysis of the deposited data

Results flagged for a closer look

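Pfkm, the muscle type of phosphofructokinase, was singled out because the effect of genotype differed between the subpopulations by a test of the difference itself: AS over WT was 2.05 higher on the log2 scale among bright tdT than among dim tdT cells (SE 0.48, adjusted p = 0.0306 by edgeR's quasi-likelihood test). In the dim tdT cells the AS libraries (2.33 to 4.97 CPM) lay below the WT libraries (9.78 to 16.3 CPM) of Pfkm in 3 of 3, whereas in the bright tdT cells they overlapped (19.4 to 30.8 against 19.6 to 22.3 CPM). A fit with a replicate block for the mouse gave 2.04 (adjusted p = 0.0401). It kept its direction in every setting tried and lost the call in 8 of the 12 fits that left out a library (adjusted p 0.0538 to 0.0865). In the test of the difference, 9 of 12 endothelial and 4 of 5 podocyte markers passed upward, beside 2.96% of all genes. None of the 12 proximal tubule markers passed it. They fell from WT to AS in the dim tdT cells, from 1429 to 6696 CPM to between 19.9 and 396.2 CPM. In the bright tdT cells they stood at 400.3 to 2654 in WT and 29.6 to 484.6 CPM in AS. The part of these markers was not tested. None of the 10 enzymes was singled out by the test of the difference.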

How the results depend on the processing

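Of 709 fold changes of the 10 enzymes under another setting, 677 kept direction and side of the threshold, 8 lost a call, 9 gained one and 15 changed sign, all 15 of them uncalled. DESeq2 called 2213 of all genes in AS over WT of the dim tdT cells, with 3 of the 10 enzymes higher, 1078 in the bright tdT cells, with 1 higher and 1 lower, and 1184 in the difference. The likelihood ratio test called 1946 (1 of the 10 higher), 827 and 1114, and without a filter on low counts 39 passed in the bright tdT cells. The version 3 quasi-likelihood fit of edgeR, added after seeing the data, called 582 among dim tdT and 0 among bright tdT cells, and none of the 10 in either. With library sizes alone, Ldha in the dim tdT cells stood at 0.020 on the log2 scale, and without a filter Pkm in the difference at 3e-04.

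The replicate block by mouse number gave 494 genes among dim tdT and 16 among bright tdT cells for AS over WT, where the number is shared and the mice are not (correlation of deviations -0.044 on average), and 877 in the difference, where the mice are the same. In bright tdT over dim tdT it added Pgk1 in WT mice and changed no other call of the 10 enzymes.

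Leaving out 1 library in turn gave 0 to 1825 genes for AS over WT in the dim tdT cells (0 without AS dim tdT library 1, 1 without library 3), 0 to 281 in the bright tdT cells (281 without WT bright tdT library 2), 252 to 857 in the difference, and 0 to 1 higher of the 10 enzymes in WT mice for bright tdT over dim tdT. The log2 fold changes that changed sign ranged, for AS over WT in the dim tdT cells, from -0.0049 to 0.25 for Hk1, from -0.51 to 0.27 for Eno1 and from -0.17 to 0.14 for Ldha. In the bright tdT cells they ranged from -0.72 to 0.80 for Hk2, from -0.11 to 0.056 for Pfkp, from -0.039 to 0.37 for Aldoa and from -0.080 to 0.29 for Pgk1. In bright tdT over dim tdT of AS mice Aldoa ranged from -0.051 to 0.25, and in the difference Pkm ranged from -0.18 to 0.16. The cause was not tested. Hk2 in the bright tdT cells rests on 5 to 27 counts per library, the lowest depth of the 10 enzymes.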
